A study of Mus musculus with 4 samples.

Results

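The genes described here are those whose symbol begins with Rab and a digit, which are the Rab GTPases and a few of the proteins named after them. Their probes were chosen by that symbol in the platform annotation, without regard to any measured value, and 130 of the 45281 probes of the array carried one. They stand for 71 of the 20296 genes with a named probe. Of these, 60 genes with 108 probes encode Rab GTPases. The other 11 genes with 22 probes encode proteins named after Rabs that are not GTPases. They are Rab11fip1 to Rab11fip5, Rab3gap1, Rab3gap2, Rab3ip, Rab3il1, Rab5if and Rab6ip1. RNA came from RAW G9 cells, a clonal NF-κB and TNF-α reporter derivative of the mouse macrophage line RAW264.7, which the labels call RAW264.7. Cells were given lipopolysaccharide (LPS, a bacterial ligand of the receptor TLR4) at 10 ng/ml for 4 h (LPS A and LPS B), or 0 ng/ml (untreated A and untreated B). The incubation field of the labels gives 0 h for the untreated cells, whereas the treatment text gives 4 h for both doses. All arrays therefore represent 1 clone that carries the reporter constructs, and the study describes A and B as biological duplicates.

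Rab proteins are small GTPases that mark the membranes of the secretory and endocytic routes. In the GTP-bound state a Rab recruits effectors that move, tether and fuse vesicles. Exchange factors switch a Rab on, GTPase-activating proteins switch it off, and the GDI cycle carries the prenylated protein between membranes. In macrophages, Rabs direct phagosome and macropinosome maturation, cytokine secretion and the traffic of TLR4.

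The starts of the genes were set out first, since they are the regulatory sequence available here for members that moved in opposite directions. The reference sequences are those of RefSeq, build GRCm38.p6, and 56 of the 71 genes had a window of 300 bases, from 250 before to 50 after an annotated start. The 250 bases before the start are shown for Rab3d, the largest rise with LPS, and for Rab40c, one of the largest falls and the first of them with a single window.
Rab3d (chr9:21918184-21918433, minus strand): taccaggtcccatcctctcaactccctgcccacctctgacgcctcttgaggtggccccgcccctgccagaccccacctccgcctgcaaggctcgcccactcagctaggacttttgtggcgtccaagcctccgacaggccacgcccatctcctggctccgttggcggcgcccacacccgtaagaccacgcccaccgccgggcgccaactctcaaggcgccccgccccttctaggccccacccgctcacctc
Rab40c (chr17:25919715-25919964, minus strand): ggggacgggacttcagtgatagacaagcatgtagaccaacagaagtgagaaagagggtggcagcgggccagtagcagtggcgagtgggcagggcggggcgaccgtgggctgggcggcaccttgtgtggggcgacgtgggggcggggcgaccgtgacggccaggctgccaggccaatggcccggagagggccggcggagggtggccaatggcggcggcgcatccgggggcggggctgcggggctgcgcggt
These stretches held 69.2% and 72.4% G and C, with 18 and 24 CpG dinucleotides, against medians of 52.4% and 6 over all 32851 windows. Motifs were searched on both strands over the whole windows. They were the AP-1 element TGANTCA, the interferon response element (GAAA, any 2 bases, GAAA), the palindromic E-box TCACGTGA bound by the lysosomal regulator TFEB and its relatives, and the NF-κB consensus. Neither window held any of them.

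The E-box was found in 3 of the 74 Rab windows (4.05%), against 0.974% of all windows. Its surroundings are shown with the motif in capitals for the 3 genes, of which Rab21 was higher with LPS, Rab24 was lower and Rab5a did not pass the test.
Rab21 (chr10:115315606-115315631, minus strand): ccaccgcggTCACGTGAcgaggggtg
Rab24 (chr13:55321963-55321988, minus strand): gcgcccgcgTCACGTGAccgggcgtc
Rab5a (chr17:53479129-53479154, plus strand): ccggggatgTCACGTGActtcggccc
The AP-1 element was present in 3 Rab windows (4.05%, against 7.81% of all), those of Rab15, Rab34 and Rab39b. Of these, only Rab34 passed the test, and it was lower with LPS. Its site is shown with the element in capitals.
Rab34 (chr11:78188360-78188384, plus strand): cagactctaTGAGTCAtgtgccagg
The NF-κB consensus was found in 5 Rab windows (6.76%, against 8.46%), those of Rab11a, Rab15, Rab28, Rab3gap2 and Rab3il1. The interferon element occurred in the window of Rab19 (1.35%, against 3.44%). Among the 6 genes that were higher with LPS, all with a window, the only match to any of the 4 motifs was the E-box of Rab21.

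The 4 arrays detected between 16380 and 17892 probes each, at a detection p under 0.1 against the negative controls of the array, which is the study's threshold for expression. Both untreated arrays lay on 1 slide, and LPS A and LPS B on a slide each, so that slide and treatment cannot be told apart. Signals were compressed with LPS: the 95th percentile was 7.47 and 6.59 times the median on the LPS arrays, and 12.01 and 10.06 times on the untreated arrays. The correlation over tested probes was 0.997 between the untreated arrays, 0.989 between the LPS arrays and 0.941 to 0.943 across treatments. Of 10 macrophage markers, 9 were detected (not Msr1), while none of the T cell, B cell or fibroblast markers with a probe was, and of 5 epithelial markers Cdh1, Cldn7 and Krt8 were detected. In the test for LPS described below, the macrophage markers Fcgr1, Mpeg1 and Adgre1 were higher and Csf1r was lower. The other detected macrophage markers did not pass, and no epithelial marker did.

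Most Rab genes were detected in these macrophages. Between 74 and 83 of the 130 Rab probes were detected on an array, and 79 (60.8%) were detected on the LPS pair, the untreated pair or both, against 41.6% of all probes with a gene symbol. By gene, 50 of 71 (70.4%) were detected, against 48% of all genes. The 21 Rab genes that were not detected include several known for expression in other tissues. These are Rab3b and Rab3c of neurosecretory cells, Rab25 and Rab17 of epithelia, Rab27b, Rab37, Rab26 and Rab44 of granule-bearing cells, Rab38 of melanocytes, and Rab6b of neurons. The others were Rab2b, Rab9b, Rab15, Rab30, Rab33a, Rab36, Rab40b, Rab42, Rab11fip1, Rab11fip4 and Rab6ip1. Rab6ip1 is an earlier name of Dennd5a, and only the probe under the earlier name belongs to the Rab genes here. A probe named Dennd5a, among the exchange factors below, was detected on both arrays of each condition. Its normalised log2 intensity was 8.14 and 7.99 on LPS A and B, and 8.03 and 8.02 on untreated A and B. A gene without detection has a signal not above background and is not thereby shown to be silent.

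Detection changed with treatment for few of them. In both conditions 47 Rab genes were detected, none was detected with LPS alone (2.21% of all genes were), and 3 were detected in untreated cells alone (4.73% of all genes), namely Rab39, Rab39b and Rab23. Rab39 is a Golgi and endosome Rab. Its detection p was 0.682 and 0.132 on LPS A and B, and 0.0502 and 0.0609 on untreated A and B. Rab39b, an X-linked relative, and Rab23, a regulator of hedgehog signalling in cilia, were each detected on 1 of the 2 LPS arrays. None of the 3 passed the test of a change.

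The question put to the arrays was which Rab genes changed with LPS. Levels are given as normalised log2 intensity, after background correction and quantile normalization, and a change is LPS minus untreated on that scale. At a limma adjusted p under 0.05 over all tested probes, 6 of the 50 Rab genes were higher with LPS (12%, against 13.7% of all genes tested) and 15 were lower (30%, against 21.4%). The higher genes were Rab3d, Rab43, Rab12, Rab10, Rab1a and Rab21, all of them GTPases. The lower genes were 12 GTPases and 3 interacting proteins, Rab11fip5, Rab3il1 and Rab3gap2. By probe, 9 of 79 were higher (11.4%, against 13.5%) and 22 were lower (27.8%, against 19%). The median change was -0.07 over the Rab genes and -0.09 over all genes, so that the median Rab gene lay close to the median gene of the array. Both LPS arrays lay above both untreated arrays for 16 Rab genes (32%, against 28.2% of all genes), and below them for 21 (42%, against 42.5%).

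The calls divide into a firm and a less firm set. Rab3d, Rab3a, Rab7b, Rab40c, Rab27a, Rab11fip5, Rab3il1 and Rab31 kept their direction and stayed past the threshold under all 15 processing alternatives, which included leaving out each array. With slide as a random block (correlation 0.732), these 8 genes were the calls that remained, at adjusted p from 6.01e-05 to 0.0112, so that the counts became 1 higher and 7 lower. The share of all genes called in that fit is not given here, so the drop is not a result about Rab genes. The same 8 remained without untreated A, and these with Rab1b without untreated B. Without LPS B, Rab11b was the only call lost.

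**Figure D1:**
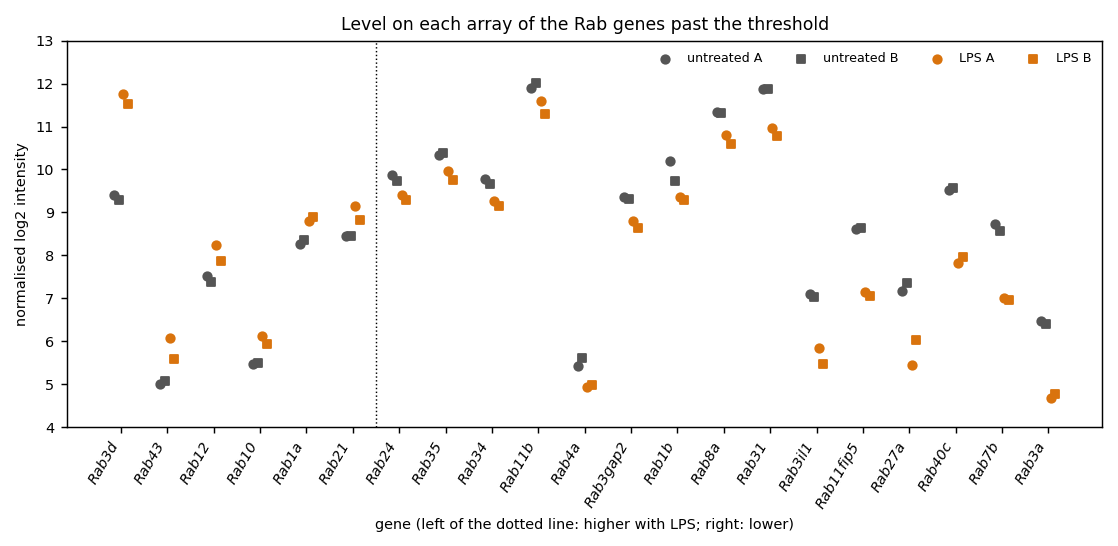
Normalised log2 intensity (vertical axis) on each of the 4 arrays for the 21 Rab genes past the threshold, ordered by change, with untreated arrays in grey and LPS arrays in orange, circles for A and squares for B. The 6 genes left of the dotted line were higher on both LPS arrays, the 15 to the right were lower on both, and Rab3d, Rab3a, Rab7b, Rab40c, Rab27a and Rab11fip5 stand out by the gap between the conditions.

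Rab3d had by far the largest rise. It is a Rab of regulated exocytosis, found on secretory granules, and its gene lies on mouse chromosome 9. Its level was 11.76 on LPS A and 11.52 on LPS B, against 9.41 and 9.30 on untreated A and B. Both LPS arrays were far above both untreated ones. The change of 2.29 ± 0.14 (SE of the limma fit, n = 2 arrays per condition) is 4.88-fold, with a limma adjusted p of 4.6e-05. The deposited signal, before any scaling, was 2914 and 2276 with LPS and 1088 and 824 without. Rab3d was the only one of the 50 Rab genes whose unscaled signal was higher on both LPS arrays. For 46 others it was lower on both, and for Rab12, Rab43 and Rab5if the conditions overlapped. The share over all genes is not given here. The LPS arrays were dimmer as a whole, with a median signal of 104.1 and 105.1 over all probes, against 117.8 and 114.1 on the untreated arrays. The count of lower unscaled signals is therefore not a result about Rab genes.

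The other 5 rises were small and depend on how the arrays are brought to 1 scale. Rab43, a Rab of the ER-to-Golgi route and of phagosomes, was at 6.08 and 5.58 on LPS A and B and at 5.01 and 5.07 on untreated A and B. The conditions do not overlap, but the LPS arrays differ from each other by more than the untreated pair. Its change was 0.79 ± 0.18 (adjusted p = 0.0166). Rab12, which sends recycling endosome cargo to lysosomes, rose by 0.61 ± 0.16 (adjusted p = 0.0280), from 7.52 and 7.37 to 8.24 and 7.87. Rab10, a Rab of exocytosis known in macrophages for carrying TLR4 to the cell surface, rose by 0.55 ± 0.14 (adjusted p = 0.0219), from 5.46 and 5.50 to 6.13 and 5.92. Rab1a, which acts in transport from the ER to the Golgi, rose by 0.54 ± 0.13 (adjusted p = 0.0195), from 8.27 and 8.37 to 8.81 and 8.90. Rab21, an early endosome Rab that moves integrins, rose by 0.53 ± 0.15 (adjusted p = 0.0369), from 8.45 and 8.46 to 9.15 and 8.81. For each of these 5 the LPS arrays lay above the untreated arrays after normalization. With each array scaled to the median of all its probes instead, Rab12, Rab10, Rab1a and Rab21 turned lower without passing the test, and Rab43 no longer passed. Without background correction Rab43 was at 0.26 (adjusted p = 0.0771) and Rab10 at 0.20 (adjusted p = 0.0617), and neither passed.

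The 6 largest falls covered exocytosis, the late endosome, protein degradation and Rab partners. Rab3a, the Rab of synaptic vesicle release and the only other Rab3 GTPase detected, was at 4.67 and 4.76 on LPS A and B and at 6.47 and 6.40 on untreated A and B. The LPS signals lay near background, with detection p of 0.0630 and 0.0598, and the change was -1.72 ± 0.13 (3.30-fold, adjusted p = 0.00011). Rab7b, a late endosome Rab that in mouse macrophages is known for limiting TLR4 signalling, was at 7.01 and 6.95 against 8.73 and 8.56. It fell by 1.67 ± 0.14 (3.18-fold, adjusted p = 0.00015). Rab40c, a Rab with a SOCS box that joins a cullin ubiquitin ligase, was at 7.82 and 7.97 against 9.53 and 9.58. It fell by 1.66 ± 0.13 (3.15-fold, adjusted p = 0.00014), and no array of either condition came near the other condition.

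Rab27a, which docks secretory lysosomes at the plasma membrane, was at 5.45 and 6.02 on LPS A and B against 7.18 and 7.35 on the untreated arrays. Its LPS arrays spread more than those of the other large falls, and the change was -1.53 ± 0.20 (2.88-fold, adjusted p = 0.00144). Rab11fip5, a Rab11 effector of the recycling endosome, was at 7.16 and 7.06 against 8.62 and 8.64, a change of -1.52 ± 0.13 (2.87-fold, adjusted p = 0.00019). Rab3il1, an exchange factor that acts on Rab3a, was at 5.84 and 5.48 against 7.11 and 7.04, a change of -1.41 ± 0.16 (2.67-fold, adjusted p = 0.00072). The LPS arrays lay below the untreated arrays for all 6. Without background correction these falls were smaller and each still past the threshold, at -0.60 for Rab3a, -1.18 for Rab7b, -1.35 for Rab40c, -0.75 for Rab27a, -1.09 for Rab11fip5 and -0.67 for Rab3il1.

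**Figure D2:**
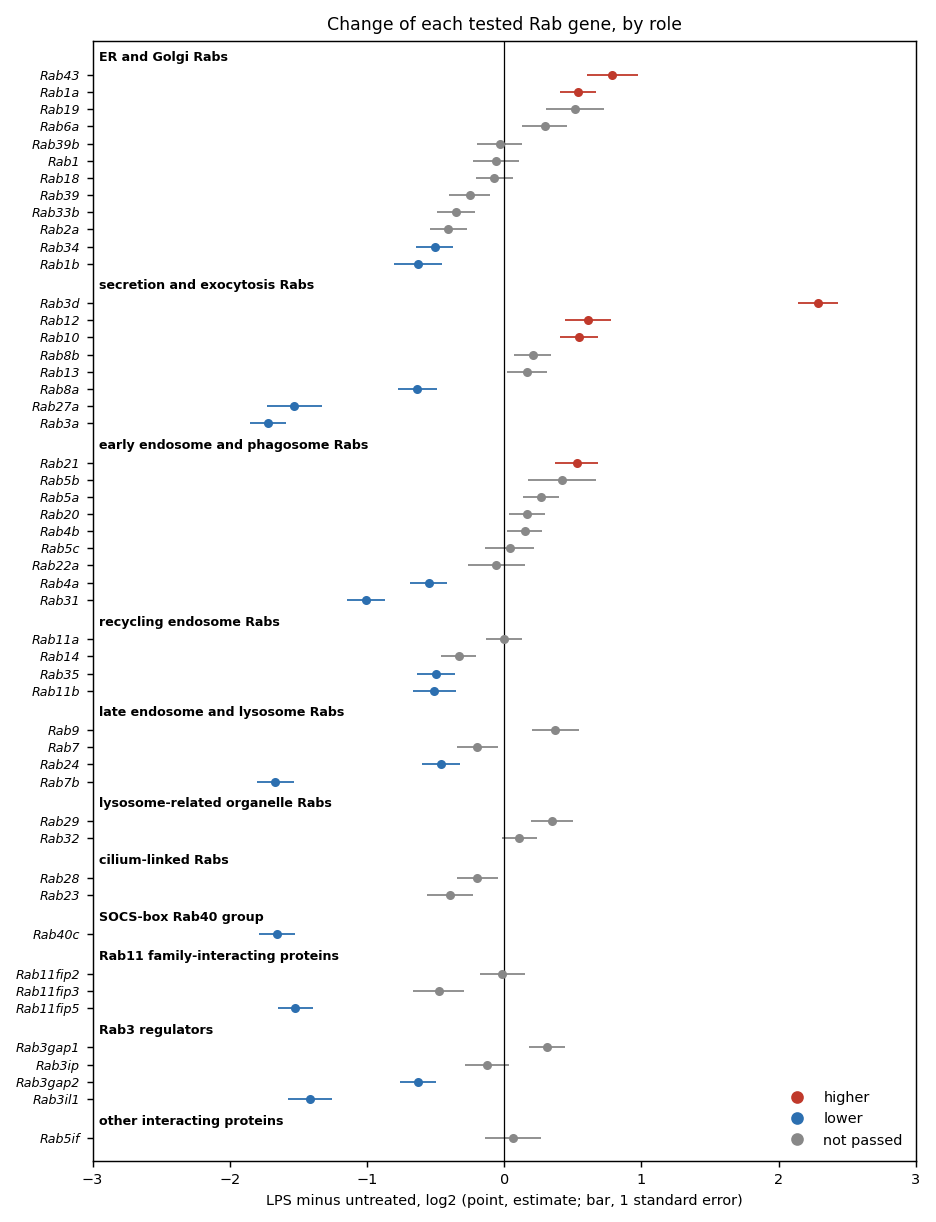
Change of each of the 50 tested Rab genes (horizontal axis, LPS minus untreated, log2; bars, 1 standard error), in groups by role, with genes higher in red, lower in blue and not past the threshold in grey. Rab3d at 2.29 stands alone on the right, and 7 genes lie below -1.

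By role, the Rabs of secretion and exocytosis held the widest range of change. Of 14 such genes 8 were tested. Rab3d, Rab12 and Rab10 were higher and Rab3a, Rab27a and Rab8a were lower. Each gene was placed in 1 group, and Rab12 is counted here although it is described above by its route to lysosomes. Each group by role is small, and its counts stand beside 13.7% higher and 21.4% lower over all genes tested. Rab8a, which serves exocytosis, cilia and macropinosomes, was at 10.80 and 10.58 on LPS A and B against 11.33 and 11.32, a change of -0.63 ± 0.14 (adjusted p = 0.0132). Its close relative Rab8b did not pass, at 0.21 ± 0.14 (adjusted p = 0.278), and neither did Rab13, at 0.17 ± 0.14. The difference between Rab8a and Rab8b was not tested.

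Of 17 Rabs of the ER and the Golgi, 12 were tested, 2 were higher (Rab43 and Rab1a) and 2 were lower (Rab1b and Rab34). Rab1b was at 9.36 and 9.29 with LPS against 10.19 and 9.72, a change of -0.63 ± 0.18 (adjusted p = 0.0321). The Rab1b call rests on its brightest probe: over the mean of its 3 tested probes the change was -0.09 (adjusted p = 0.571). The difference between Rab1a and Rab1b was not tested. Rab34, a Golgi Rab of macropinosomes and cilia, changed by -0.51 ± 0.13 (adjusted p = 0.0263). Rab2a, of Golgi transport, just missed the threshold at -0.41 ± 0.14 (adjusted p = 0.0555). Rab19 (0.52), Rab6a (0.29), Rab39b (-0.03), Rab18 (-0.07), Rab39 (-0.25) and Rab33b (-0.35) did not pass, nor did a probe annotated only as Rab1 (-0.06).

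All 9 Rabs of the early endosome and phagosome were detected. Rab31, which works between the trans-Golgi network and endosomes, was at 10.97 and 10.77 with LPS against 11.87 and 11.88, a 2.01-fold fall (SE of the log2 change 0.14, adjusted p = 0.00175), and its conditions lie well apart. Rab4a, of rapid recycling, changed by -0.55 ± 0.14 (adjusted p = 0.0204), a call lost without background correction (-0.16, adjusted p = 0.0944), and Rab21 rose as above. The 3 Rab5 genes, which control early endosome fusion, did not pass, at 0.27 ± 0.13 for Rab5a, 0.42 ± 0.25 for Rab5b and 0.04 ± 0.18 for Rab5c. Rab20 (0.17), a Rab of maturing phagosomes, Rab4b (0.15) and Rab22a (-0.06) did not pass either.

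Among 4 tested Rabs of the recycling endosome, Rab11b and Rab35 were lower. Rab11b was at 11.60 and 11.29 with LPS against 11.90 and 12.01, a change of -0.51 ± 0.15 (adjusted p = 0.0422). Rab35, of fast recycling, changed by -0.50 ± 0.14 (adjusted p = 0.0316). Rab14 was at -0.33 ± 0.13 (adjusted p = 0.0873) and Rab11a at 0.00 ± 0.13. Among 4 tested Rabs of the late endosome and lysosome, Rab7b and Rab24 were lower. Rab24, linked to autophagy, was at 9.41 and 9.29 against 9.88 and 9.74, a change of -0.46 ± 0.14 (adjusted p = 0.0377). Rab7, the general Rab of late endosome fusion, was at 10.78 and 10.53 against 10.93 and 10.77, and Rab9, of transport from endosomes to the Golgi, changed by 0.37 ± 0.17. Neither passed, and for Rab7 the conditions overlap.

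Rab32, which serves lysosome-related organelles and the defence against intracellular bacteria, was at 10.35 and 10.39 with LPS and 10.24 and 10.28 without (0.11 ± 0.13, adjusted p = 0.551), and Rab29 of the same group was at 0.35 ± 0.15. Neither Rab28 (-0.20) nor Rab23 (-0.39), which are linked to cilia, passed. Among the interacting proteins, Rab3gap2 changed by -0.63 ± 0.13 (adjusted p = 0.0115), whereas Rab3gap1, its partner in a complex that inactivates Rab3, was at 0.31 ± 0.13 (adjusted p = 0.111). The difference between Rab3gap2 and Rab3gap1 was not tested. Rab3ip (-0.13), Rab11fip2 (-0.01) and Rab11fip3 (-0.48) did not pass. The 3 members with the brightest probes were Rab11b, Rab5if and Rab31. Rab5if, an ER protein despite its name, was at 11.76 and 11.16 with LPS against 11.48 and 11.31, and did not pass. The brightness of different probes is not a measure of relative RNA amount.

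Of the 71 Rab genes, 40 have more than 1 probe and 21 have more than 1 tested probe. Rab3d, Rab40c, Rab27a and Rab31 have 1 probe each, and the other probe of Rab3a was not tested. The changes of these genes therefore have no other probe beside them. No gene had probes that passed in opposite directions, but in several the brightest probe, which stands for the gene above, does not speak for all. Rab11fip5 (-1.52 and -1.35), Rab3il1 (-1.41 and -0.86), Rab7b (-1.67 and -0.74), Rab8a (-0.63 and -0.51) and Rab43 (0.79 and 0.57) had both tested probes past the threshold. For Rab24 and Rab34, 2 of 3 tested probes passed. The remaining probe was at -0.33 for Rab24 and at -0.01 for Rab34, where the conditions overlapped. Over the mean of its tested probes the Rab34 call was lost. For Rab1b only the brightest passed, and the other 2 were at 0.30 and 0.05. For Rab10 the other probe was at 0.15 and for Rab3gap2 at -0.32, and neither passed. The 4 tested probes of Rab7 ran from -0.30 to 0.53, and none passed. In Rab5a and Rab9 a dimmer probe passed as higher, at 0.66 (adjusted p = 0.0152) and 0.56 (adjusted p = 0.0230), while the brightest did not. In Rab13 a dim probe passed as lower (adjusted p = 0.0371). It was not detected on either LPS array, which allows a level at least 1.14-fold lower with LPS. Bounds of this kind set the mean of the detected arrays against the lowest detected level of each array of the other condition.

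**Figure D3:**
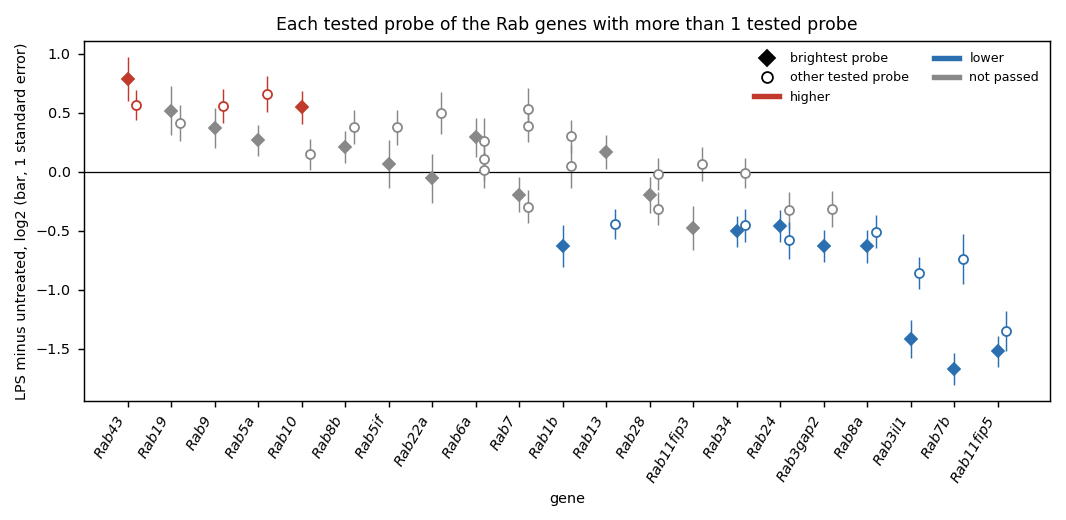
Change of every tested probe (vertical axis, LPS minus untreated, log2; bars, 1 standard error) of the 21 Rab genes with more than 1, with diamonds for the brightest probe, circles for the others, and red, blue and grey for higher, lower and not past the threshold. Both probes of Rab11fip5, Rab3il1 and Rab7b lie below -0.6, whereas the probes of Rab7 and Rab1b lie on both sides of 0.

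The balance of rises and falls differed between scalings. Scaled to the median of all probes, all genes tested shifted by a median of -0.70 and the Rab genes by -0.60. Then 1 Rab gene was higher, Rab3d (against 4.95% of all genes), and 32 were lower (against 62.7%). Scaled to the median of the tested probes, where the median over all genes was 0.10, 14 Rab genes were higher (against 31.5%) and 13 were lower (against 19.3%). Rab3d rose by 1.66 in the first and 2.46 in the second, and the 6 largest falls kept their direction in both.

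**Figure D4:**
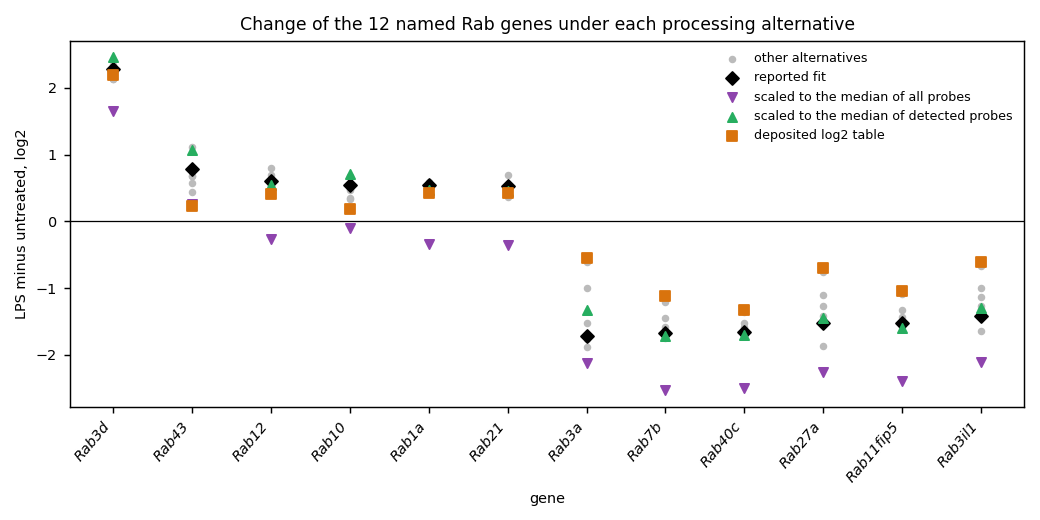
Change (vertical axis, LPS minus untreated, log2) of the 6 higher Rab genes and the 6 largest falls under the reported fit (black diamonds) and each alternative, with 3 alternatives in colour and the rest in grey. Rab3d stays above 1.6 and the 6 falls below -0.5 throughout, whereas Rab12, Rab10, Rab1a and Rab21 lie below 0 when arrays are scaled to the median of all probes.

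The genes that switch Rabs on and off and that read them were followed through 5 lists with 116 genes, of which 83 were tested. Of these, 6 were higher and 19 were lower, where 13.7% and 21.4% of all genes were, and their median change was -0.08. Among 26 tested exchange factors, 3 were higher (Dennd6b, Dennd2d and Rabgef1) and 7 were lower. Dennd6b, of a family that activates Rab14, was at 7.40 and 7.46 with LPS against 6.16 and 6.05 (1.33 ± 0.13, adjusted p = 0.00038), and Dennd2d rose by 0.88 ± 0.15 (adjusted p = 0.0043). Dennd2c, which activates Rab9, was at 4.64 and 4.60 against 7.39 and 7.43. It was detected on 1 of the 2 LPS arrays, and its fitted change of -2.79 ± 0.13 (adjusted p = 1e-05) became -1.18 without background correction and -1.80 with an offset of 50, each still past the threshold. Dennd4a, which activates Rab10, changed by -1.44 ± 0.16 (adjusted p = 0.00072). Without background correction Dennd6b was at 0.72 and Dennd4a at -0.90, both past the threshold. The other lower exchange factors were Dennd3, Rin1, Dennd4c, Dennd1b and Rin3.

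Among 26 tested GTPase-activating proteins with a TBC domain, 1 was higher and 9 were lower, where 13.7% and 21.4% of all genes were. Tbc1d2, which inactivates Rab7, was at 5.89 and 6.24 on LPS A and B against 8.34 and 8.52 on untreated A and B, and no LPS value came near an untreated one. It changed by -2.37 ± 0.16 (adjusted p = 7e-05), and its relative Tbc1d2b by -1.13 ± 0.13 (adjusted p = 0.00087). Tbc1d1, known for acting on Rab10 in muscle and fat, was the 1 that was higher, at 0.53 ± 0.16 (adjusted p = 0.0407). Without background correction Tbc1d1 was at 0.33 and did not pass (adjusted p = 0.0602), Tbc1d2 was at -1.46 and Tbc1d2b at -0.45. Tbc1d1 turned lower, without passing, when arrays were scaled to the median of all probes.

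Among 20 tested effectors, 2 were higher and 3 were lower, where 13.7% and 21.4% of all genes were. Rilpl2, a partner of Rab8 and Rab10 at cilia and lysosomes, was at 8.998 and 9.153 with LPS against 7.74 and 7.80 (1.31 ± 0.13, adjusted p = 0.00046). Eea1, the tether through which Rab5 joins early endosomes, was at 0.55 ± 0.13 (adjusted p = 0.0173), a call lost without background correction (0.16, adjusted p = 0.0909). Rufy1, an early endosome effector of Rab4 and Rab14, changed by -0.87 ± 0.14 (adjusted p = 0.0031), Plekhm1, which links Rab7 to lysosome fusion, by -0.66 ± 0.17 (adjusted p = 0.0213), and Rilp, which links Rab7 to dynein, by -0.59 ± 0.15 (adjusted p = 0.0213). None of the 6 tested genes of the prenylation and GDI cycle and none of the 5 tested Rab-like GTPases passed in the limma fit. Over the mean of its tested probes Plekhm1 was at -0.33 and did not pass (adjusted p = 0.0639). With slide as a random block, the calls of Eea1, Plekhm1 and Tbc1d1 were lost, and 4 regulator genes were higher and 7 were lower.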

How the data were processed

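Total RNA was labelled and hybridised to 4 Illumina mouse bead arrays, and the authors extracted probe signals with GenomeStudio 2011.1. The files deposited for single arrays give the intensity of each probe, linear and not background-subtracted, and the authors' detection p-value against negative controls. A deposited table covering all 4 arrays gives normalised log2 values, which served as an alternative. Arrays have no read depth, and their number limits the precision.

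Rab genes were taken by symbol from the platform annotation. Of the 130 probes, 114 were named through Entrez identifier, 5 by accession, 8 by symbol and 2 by synonym in RefSeq's annotation of GRCm38.p6, and 1 kept its platform symbol. The members and the lists of regulators were chosen with earlier results of these data known.

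In R 4.3.3, neqc of limma 3.58.1 was used for background correction, quantile normalization and the step to log2, after 16 was added to each value. A probe was tested if its detection p was under 0.1 on the whole LPS pair or the whole untreated pair (17211 probes). The test was that of lmFit and eBayes, and p-values were adjusted over all tested probes by Benjamini-Hochberg, with a threshold of 0.05. The tested probe with the highest mean stood for a gene. The procedure was also run on simulated arrays. Neither the noise and effect sizes used there nor the outcome are given here. No conclusion about the error rate of the calls on the real arrays is therefore drawn from that run. With 2 arrays per condition, p-values and standard errors rest only on the spread between these arrays. In eBayes the variance of each probe is drawn toward a value shared by all tested probes. A standard error can therefore exceed the spread of a gene's own arrays. The genes described singly were the 6 largest rises and falls whose LPS arrays lay beyond both untreated arrays. Members whose probes passed in opposite directions, or that were detected in 1 condition only, were described too. So were the members in the study's results of its secondary screen (Rab7, Rab8a, Rab24 and Rab32) and the 3 with the brightest probes. Up to 2 rises and falls in each regulator list were added. Others are named with their change or in a count, and further values beside some of these were chosen after they were seen. The alternatives were the deposited log2 table, signals without background correction, scaling to the median of all or of the tested probes, 50 added in place of 16, other detection filters, slide as a random block, a replicate block, the mean of a gene's probes, and leaving out each array. Slide as a random block, with its correlation taken from the spread within the pairs because duplicateCorrelation gave no estimate, and the filter on detection on all 4 arrays were chosen after seeing the data.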

Additional observations from a re-analysis of the deposited data

How the results depend on the processing

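Of the 21 calls, 8 (1 higher and 7 lower) remained under all 15 alternatives. The number of Rab genes higher with LPS went from 6 to 1 with median scaling over all probes, 14 over the tested probes, 3 with no filter on detection and 1 with slide as a random block, and from 1 to 10 over the fits that leave out an array. The number lower went from 15 to 32 with median scaling over all probes and 7 with the slide block, and from 7 to 20 without an array. Rab probes higher went from 9 to 1, 25 and 1 (median of all probes, median of the tested probes, slide block) and from 1 to 19 without an array, and those lower from 22 to 47 (median of all probes) and 9 (slide block), and from 9 to 28 without an array. Regulator genes higher went from 6 to 2 and 15 with the 2 median scalings and from 2 to 15 without an array, and those lower from 19 to 65 (median of all probes) and 7 (slide block), and from 7 to 29 without an array. In fits without an array, the lone array of a condition is assumed to vary like the other pair. Shares of all genes called are given here only for the reported fit and the 2 median scalings. The moves in the other fits are therefore not a result about Rab genes. The cause of the moves was not tested. Detected Rab genes ranged from 50 to 53 without an array and were 43 at a detection p under 0.01.

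With median scaling over all probes, 18 of the 50 Rab genes turned from above to below 0. They include Rab10 (-0.10), Rab12 (-0.26), Rab1a (-0.33) and Rab21 (-0.35), which had been called higher, and Rab11a (-0.47), Rab29 (-0.54), Rab32 (-0.59), Rab3gap1 (-0.50), Rab4b (-0.73), Rab5a (-0.54), Rab5c (-0.62) and Rab6a (-0.53), which now passed as lower. The other 6 (Rab13, Rab19, Rab20, Rab5if, Rab8b and Rab9) passed in neither fit. Tbc1d1 (-0.33) turned too. With median scaling over the tested probes, 7 turned from below to above 0, of which Rab11fip2 (0.47), Rab39 (0.47) and Rab39b (0.63) now passed as higher, and Rab1, Rab22a, Rab23 and Rab3ip passed in neither fit. Over the remaining alternatives, Rab genes that turned sign passed in neither fit. The letters A and B only number the arrays (the A minus B differences of the 2 pairs correlated at 0.145 over 17211 probes). With them as a replicate block, 7 Rab genes were higher and 16 lower.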
